A study of Mus musculus with 16 samples.

Results

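The genes described here are 7 major urinary protein genes of the mouse, Mup3, Mup7, Mup11, Mup12, Mup19, Mup20 and Mup21. They are the rows that carry these symbols in a table of gene-level TPM values (a share of a library's transcripts, corrected for transcript length) for liver tumors and nontumor liver, 7 of 20601 listed genes and 7 of 21 listed symbols made of Mup and a number. All 7 passed the filter for testing. The livers of 8 mice had received plasmids for human N-Ras (19 µg per mouse), human c-Myc (1 µg) and the Sleeping Beauty transposase (2 µg) by hydrodynamic delivery. From week 4 the mice ate either a ketogenic diet (KD, with 0.1% carbohydrate, 89.5% fat and 10.4% protein) or a normal diet (ND) for 4 further weeks, and polyadenylated RNA was sequenced from tissue taken at week 8. The 16 libraries form 4 groups of 4, which are ND nontumor, ND tumor, KD nontumor and KD tumor. Every group, nontumor liver included, came from plasmid-injected mice, so no untreated liver stands beside them. Sex, strain and age of the mice are not given in the sources used here, nor is which tumor and nontumor samples share a mouse. The main tests treat the 16 libraries as independent, without pairing by mouse, and can speak only for the variation among these libraries.

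Major urinary proteins are small secreted lipocalins with a barrel-shaped pocket that holds volatile pheromones. Hepatocytes make them in large amounts, the kidney passes them into the urine, and there they release bound odorants slowly and mark the individual. In mouse liver many Mup genes are male-biased, since their transcription follows the pulsed growth hormone secretion of males through the growth hormone receptor and STAT5b. Mup20 encodes darcin, a male pheromone protein that females find attractive and learn from. Mup3 and Mup21 belong with Mup20 to the more divergent, peripheral genes of the cluster, whereas Mup7, Mup11, Mup12 and Mup19 belong to the central group of near-identical copies.

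The 7 genes lie on the minus strand of chromosome 4 (mm10, GRCm38) within a cluster of 2.19 Mb at chr4:59956804-62150863. By the GENCODE annotation, Mup7 lies at chr4:60066469-60070475, Mup11 at chr4:60658466-60662411, Mup12 at chr4:60737383-60741326, Mup19 at chr4:61778324-61782269, Mup20 at chr4:62050234-62054158, Mup3 at chr4:62083476-62087342 and Mup21 at chr4:62147932-62150863. All are annotated as protein coding. A window of 60 coding bases from exon 3 is shown for each because 20 of its positions vary among the 7 genes, and it shows how far reads can tell them apart. Capitals mark bases that differ from Mup11 at the aligned position, and the order goes from the central copies to the divergent genes.
Mup11 (chr4:60660902-60660961, minus strand): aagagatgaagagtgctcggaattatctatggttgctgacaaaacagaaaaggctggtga
Mup12 (chr4:60739819-60739878, minus strand): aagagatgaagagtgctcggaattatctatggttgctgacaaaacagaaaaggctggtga
Mup7 (chr4:60068915-60068974, minus strand): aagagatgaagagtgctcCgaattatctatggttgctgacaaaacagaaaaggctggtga
Mup19 (chr4:61780773-61780832, minus strand): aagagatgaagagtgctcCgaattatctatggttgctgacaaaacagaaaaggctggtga
Mup20 (chr4:62052650-62052709, minus strand): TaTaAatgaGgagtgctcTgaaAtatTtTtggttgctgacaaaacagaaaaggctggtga
Mup3 (chr4:62085973-62086032, minus strand): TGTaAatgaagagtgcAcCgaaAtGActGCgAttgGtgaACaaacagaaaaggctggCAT
Mup21 (chr4:62149368-62149427, minus strand): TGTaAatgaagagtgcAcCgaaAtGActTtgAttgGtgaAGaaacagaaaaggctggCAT

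Mup12 was identical to Mup11 in this window and Mup7 and Mup19 each differed at 1 base, while Mup20 differed at 8, Mup21 at 17 and Mup3 at 18. Over the whole coding sequence the 4 central copies shared 98.9% to 99.6% of bases with each other. Mup3 and Mup21 were 96.3% identical to each other and 83.9% to 84.8% identical to the central copies, and Mup20 was 90.4% to 91.3% identical to the central copies. This bears on how well each gene can be counted. Of all 100-base windows of the annotated transcript, all of them for Mup19, 87.1% for Mup7, 83.5% for Mup11 and 77.5% for Mup12 were also found without a mismatch in the transcripts of another Mup gene. The share was 38.8% for Mup20, 4.5% for Mup21 and 2.9% for Mup3. How the submitters counted reads that fit several genes is not given in the sources used here, so the split of reads among Mup7, Mup11, Mup12 and Mup19 is uncertain. Beside their own values these 4 are given as a sum. The windows were compared with every annotated Mup gene, so a split with Mup genes outside these 4 can still change that sum. Mup3, Mup20 and Mup21 are told apart by most of their length, and the sum of the 7 is given as well.

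Promoter sequence was read for 5 of the 7 genes (RefSeq, GRCm38.p6). The 4 that hold a TATATAA element are shown, because they differ in length between 2 blocks that these 4 share. No TATATAA was found in the sequence read for Mup7. Each line ends in the TATATAA element, which is in capitals, as is the stretch rich in A between the shared blocks catacggg (catatggg in Mup21) and ctgaa.
Mup11 (chr4:60662391-60662490, minus strand): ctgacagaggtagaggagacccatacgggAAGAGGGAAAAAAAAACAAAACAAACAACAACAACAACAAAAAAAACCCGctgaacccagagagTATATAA
Mup19 (chr4:61782249-61782348, minus strand): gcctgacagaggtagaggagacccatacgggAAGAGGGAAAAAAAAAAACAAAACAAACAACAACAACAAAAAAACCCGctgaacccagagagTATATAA
Mup3 (chr4:62087322-62087421, minus strand): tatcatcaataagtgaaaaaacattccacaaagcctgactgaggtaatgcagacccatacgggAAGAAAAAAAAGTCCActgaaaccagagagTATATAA
Mup21 (chr4:62150843-62150942, minus strand): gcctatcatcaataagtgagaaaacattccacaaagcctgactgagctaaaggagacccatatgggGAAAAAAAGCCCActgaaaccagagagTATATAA

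The stretch was 50 bases long in Mup11 and 48 in Mup19, and 16 in Mup3 and 13 in Mup21. Counted from the RefSeq start, TATATAA began at -2 in Mup11, -31 in Mup19, -11 in Mup3 and -8 in Mup21. By the GENCODE coordinates it lay inside each of these genes. A run of only A and C at least as long as the 42 bases in Mup11 was found in 0.091% of the 32851 promoters of the table, which reach from 250 bases before to 50 after the start, and TATATAA on the gene's strand in 2.2%. On both strands, a STAT5 motif (TTCNNNGAA) matched none of the 5 promoters and 7.0% of all promoters, an HNF4 motif (CAAAGNNCA) matched Mup7, Mup11 and Mup19 and 5.5% of all, and a FOXA motif (TGTTTNC) matched those 3 and Mup21 and 17.8% of all. CEBP, HNF1 and GRE motifs matched none of the 5 promoters, beside 1.7%, 0.1% and 0.4% of all. A TATA motif with other letters than the element shown above also matched none of the 5, beside 12.4% of all. The STAT5, HNF4, FOXA and these further motifs were searched in the 250 bases before the start only. These matches describe the letters of the window only.

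Recovered reads over the listed genes ran from 3518966 in ND nontumor 4 to 14074042 in KD tumor 3. ND nontumor 4 stood apart, since its listed genes held 7.38% of the TPM total against 49.96% to 88.45% in the other 15 libraries. Values were therefore rescaled by median-of-ratios factors, and levels below are rescaled TPM. Values without ND nontumor 4 are also given for the members, their sums and the gene lists. Genes that define hepatocytes were measured in all 16 libraries, with a summed level (11 of 12 listed) of 36348 to 122419 in nontumor liver and 82149 to 211286 in tumors. Liver tumor and fetal liver markers (14 of 14 listed) summed to 42.9 to 760.5 in nontumor liver and 1213 to 4143 in tumors, without overlap between the tissues.

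In nontumor liver Mup3, Mup20, Mup11 and Mup7 led in this order on both diets. Mup3 was highest, at 14202 ± 4649 on ND and 9264 ± 2753 on KD (mean ± SD, n = 4 each). Mup20 followed at 6521 ± 1758 and 6250.4 ± 3771, and Mup11 at 5460.2 ± 2392 and 3109 ± 1011. Their ranges overlapped in part, since Mup3 lay wholly above Mup20 on ND but not on KD, and Mup20 overlapped Mup11 on both. Mup7 stood at 2253 ± 1802 and 965 ± 581, and Mup19, Mup21 and Mup12 at 165 to 610 on average. Mup19 spread most, from 33.1 to 1982 on ND.

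**Figure D1:**
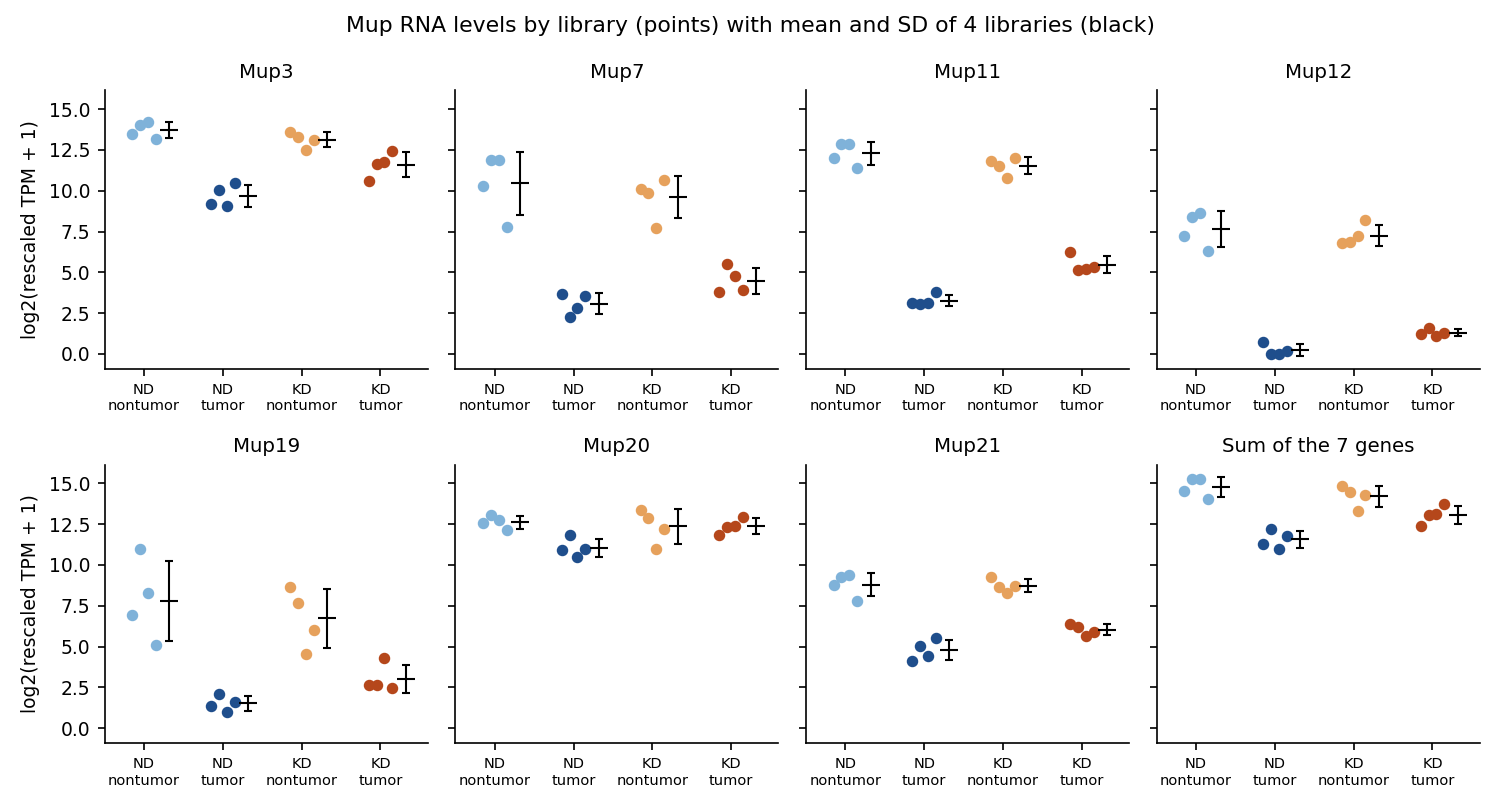
Level of each Mup gene and of their sum in each library, as log2(rescaled TPM + 1) on the vertical axis, with the 4 groups on the horizontal axis. Colored points are libraries, and black marks with bars are the mean ± SD of 4. Every gene is lower in ND tumor than in ND nontumor in all 4 libraries, whereas Mup20 in KD tumor lies in the range of KD nontumor.

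On the normal diet all 7 genes were lower in tumors than in nontumor liver, but by very different amounts. Mup11 and Mup12 kept 0.163% and 0.0857% of the nontumor mean, Mup7 and Mup19 0.359% and 0.327%, Mup3 and Mup21 kept 6.33% and 5.84%, and Mup20, the darcin gene, kept 34.6%. All 7 passed the test (limma with a variance trend, Benjamini-Hochberg adjusted over 13432 genes), beside 14.2% of all tested genes that were lower, and in all 7 the ranges of the groups did not overlap, beside 13.7% of all genes with every tumor value below every nontumor value.

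Mup11 stood at 4161, 7416, 7523 and 2740.4 in the 4 ND nontumor libraries and at 7.78, 7.405, 7.71 and 12.6 in the 4 ND tumor libraries. The tumor values were close together, apart from a higher value in ND tumor 4, and all lay far below nontumor liver. The difference of -9.02 ± 0.36 on the log2 scale (± SE, limma adjusted p = 1.98e-10) was the lowest of all 13432 genes. Differences are on the scale of log2(rescaled TPM + 1), which understates changes of genes near 0.

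Mup12, a near-copy of Mup11, fell by 7.42 ± 0.42 (limma adjusted p = 1.16e-08), from 79.7 to 404 in nontumor liver to 0 to 0.685 in tumors. The ND tumor libraries held 3, 0, 0 and 1 of its reads. Mup7 fell by 7.37 ± 0.78 (limma adjusted p = 5.61e-06), from 214 to 3791 in nontumor liver to 3.83 to 11.9 in tumors. Mup19 fell by 6.28 ± 0.98 (limma adjusted p = 0.000186), from 33.1 to 1982 in nontumor liver to 1.007 to 3.35 in tumors. Without ND nontumor 2, whose Mup19 level stood apart, the share that Mup19 kept was 1.30%. Leaving out each library in turn gave differences of -7.26 to -5.23 for Mup19 and -8.30 to -6.90 for Mup7, and all of them passed.

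The sum of Mup7, Mup11, Mup12 and Mup19, formed after their values were seen, was 8566 ± 4988 in ND nontumor liver and 19.2 ± 5.399 in ND tumors (SD, n = 4 each), or 0.224% of the nontumor mean. On the ketogenic diet it was 4412 ± 1692 in nontumor liver and 80.3 ± 15.4 in tumors. The tumor ranges of 14.6 to 25.4 on ND and 58.8 to 95.1 on KD overlapped neither each other nor the nontumor ranges of 3068 to 13483 and 2161 to 6115. The mean log2 sum in tumors less that in nontumor liver was -8.54 on ND and -5.68 on KD, and it was higher in KD than in ND tumors by 2.03. No p is given for it. A split of reads with Mup genes outside these 4 can still change this sum, and Mup17 alone stood at 8613 ± 7484 in ND nontumor liver. The 4 copies held 17.9% to 34.1% of the 7-gene sum in nontumor liver and 0.309% to 1.80% in tumors.

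Mup3 stood at 11491, 16784, 19308 and 9226 in ND nontumor liver and at 581, 1074, 545 and 1399 in ND tumors. Its tumor levels lay far above those of the central copies, and none came near nontumor liver. Mup3 fell by 4.03 ± 0.45 (limma adjusted p = 7.7e-06). Mup21, its closest relative in sequence, fell by 4.03 ± 0.35 (limma adjusted p = 7.37e-07), from 222 to 659 to 16.6 to 44.2.

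Mup20 stood at 6031, 8662, 6937 and 4455 in ND nontumor liver and at 1929, 3592, 1448 and 2060.1 in ND tumors. The groups did not overlap, but the highest tumor library came close to the lowest nontumor library. Mup20 fell by 1.57 ± 0.48 (limma adjusted p = 0.0211). This call was lost without ND nontumor 2 (limma adjusted p = 0.0641), ND tumor 1 (0.0536) or ND tumor 3 (0.067), on the TPM as deposited (0.492) and with no filter on low values (0.113).

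On the ketogenic diet 6 of the 7 genes were lower in tumors, and Mup20 was not called. The lower calls stand beside 16.2% of all tested genes, and the same 6 genes had every tumor value below every nontumor value, beside 17.3% of all genes. The tumor mean of Mup11 was 1.48% of the nontumor mean, that of Mup3 37.03% and that of Mup20 88.7%.

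Mup11 stood at 3567, 2944, 1782 and 4142 in KD nontumor liver and at 75.8, 34.3, 35.3 and 38.9 in KD tumors. KD tumor 1 was the highest tumor library and still lay far under the lowest nontumor one. Mup11 fell by 6.06 ± 0.36 (limma adjusted p = 4.66e-08), again the lowest of all 13432 differences. Mup12 fell by 5.95 ± 0.42 (limma adjusted p = 1.44e-07), Mup7 by 5.1 ± 0.78 (limma adjusted p = 0.00019) and Mup19 by 3.71 ± 0.98 (limma adjusted p = 0.00851). In KD tumors Mup12 rested on 7 to 11 reads per library, Mup7 on 74 to 264 and Mup19 on 25 to 153.

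Mup3 stood at 12354, 10086, 5749 and 8866 in KD nontumor liver and at 1532.5, 3209.8, 3538 and 5440.5 in KD tumors. The highest tumor library lay just under the lowest nontumor library. Mup3 fell by 1.52 ± 0.45 (limma adjusted p = 0.0162), a call that was lost without KD tumor 1 (limma adjusted p = 0.0633), on the TPM as deposited (0.104), with no filter on low values (0.0988) and in a fit of the KD groups alone (0.0518). Mup21 fell by 2.69 ± 0.35 (limma adjusted p = 4.34e-05), from 310 to 611 to 48.6 to 81.9.

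Mup20 stood at 10765, 7587, 2025 and 4625 in KD nontumor liver and at 3584, 5144, 5427 and 8011 in KD tumors. The ranges overlapped, with the lowest and the highest of the 8 values both in nontumor liver. The difference was 0.02 ± 0.48 on the log2 scale (limma adjusted p = 0.982), with a 95% interval of -0.996 to 1.029, so a change of about 2-fold either way could not be told from none. The sign of this small difference turned under other scalings, to -0.32 on the TPM as deposited.

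**Figure D2:**
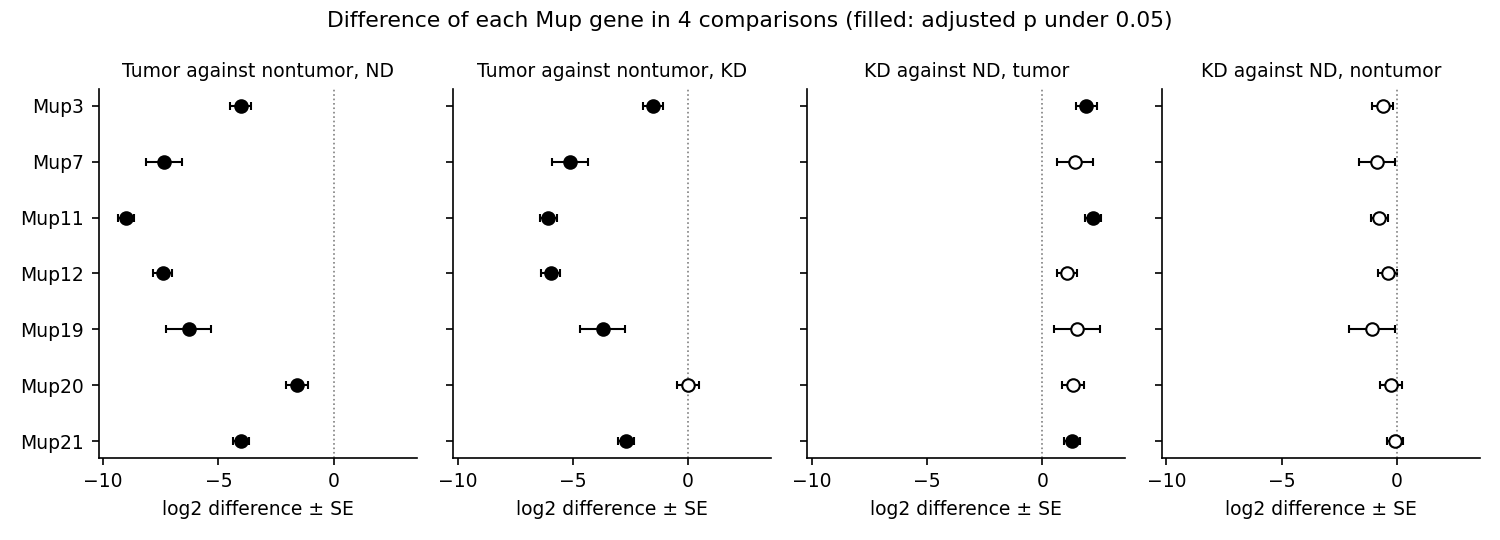
Log2 difference of each Mup gene (horizontal axis, on log2(rescaled TPM + 1)) in 4 comparisons, with bars for ± SE from the limma fit. Filled points passed the adjusted p threshold of 0.05, and they are all 7 genes on ND, 6 on KD, 3 for diet in tumors and 0 for diet in nontumor liver.

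In the sum of the 7 genes the split of reads among these 7 matters less, because TPM per read differed by at most 2.33 times. A split of reads with the 14 other Mup symbols can still change this sum. The sum was 29772 ± 11260.1 in ND nontumor liver and 3204 ± 1182 in ND tumors, or 10.8% of the nontumor mean. On the ketogenic diet it was 20361 ± 7724 in nontumor liver and 9118 ± 3406 in tumors, or 44.8%. The tumor range of 2028 to 4712 on ND lay under the nontumor range of 16971 to 39534, and the KD tumor range of 5293 to 13569 overlapped the KD nontumor range of 10245 to 28898. The mean log2 sum was lower in tumors by 3.20 on ND and by 1.14 on KD. No p is given for the sum.

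The makeup of this sum changed between tissues on both diets, toward Mup20. Mup20 made up 17.8% to 37.3% of the sum in the 8 nontumor libraries and 58.4% to 76.2% in the 8 tumor libraries, without overlap. Mup11 made up 12.3% to 20.7% in nontumor liver and 0.157% to 1.43% in tumors. Mup20 and Mup3 together held 96.7% to 99.1% of the sum in tumors.

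**Figure D3:**
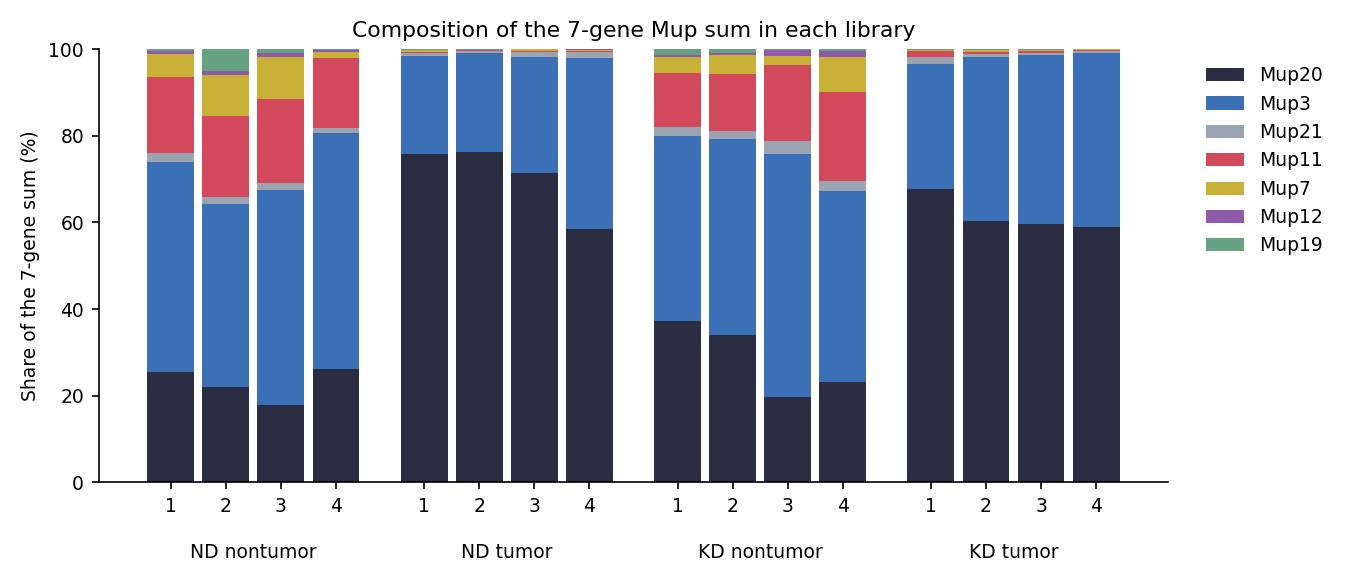
Share of each Mup gene in the 7-gene sum (vertical axis, percent) for each of the 16 libraries (horizontal axis, numbered by replicate within 4 groups). Each bar is 1 library and adds to 100%. The dark Mup20 segment holds 58.4% to 76.2% in tumors and 17.8% to 37.3% in nontumor liver, and the red Mup11 segment is visible in nontumor liver.

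The ratio of Mup20 to Mup3 makes the same comparison within a library, where scaling between libraries plays no part. It was 0.359 to 0.525 in ND nontumor liver and 1.47 to 3.35 in ND tumors, and 0.352 to 0.871 in KD nontumor liver and 1.47 to 2.34 in KD tumors. The order of the 2 genes was thus turned round in all 8 tumor libraries. The ratio of Mup20 to each of the 6 other members was compared between tissues on each diet, 12 comparisons chosen after the values were seen. These used differences of log2(rescaled TPM + 1), so the added 1 and the scaling play a part for genes near 0. No plain ratio to Mup12 was formed, since it had 0 reads in ND tumor 2 and ND tumor 3. In each of the 12 the groups did not overlap, which gives an exact two-sided permutation p of 0.0286, the smallest that 70 assignments allow, and the adjusted p was 0.0286 as well. On the scale of log2(rescaled TPM + 1), the mean ratio was higher in tumors by 2.46 against Mup3 and 7.45 against Mup11 on ND, and by 1.53 and 6.08 on KD.

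Between tumors, Mup3, Mup11 and Mup21 were higher on the ketogenic diet, and these 3 of 7 passed the test, beside 7.21% of all tested genes that were higher and 8.49% that were lower. For Mup11 the tumor mean was 46.1 ± 19.9 on KD and 8.88 ± 2.51 on ND (SD, n = 4 each), a log2 difference of 2.20 ± 0.36 (limma adjusted p = 0.00181). Mup3 was higher by 1.91 ± 0.45 (limma adjusted p = 0.0118), at 3430.2 ± 1602 against 900 ± 411. Mup21 was higher by 1.26 ± 0.35 (limma adjusted p = 0.0239), at 65.8 ± 14.97 against 28.2 ± 12.5.

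The other 4 genes missed the threshold, with differences of 1.32 ± 0.48 for Mup20 (limma adjusted p = 0.0696, 95% interval 0.31 to 2.33), 1.06 ± 0.42 for Mup12 (0.0898), 1.41 ± 0.78 for Mup7 (0.222) and 1.50 ± 0.98 for Mup19 (0.299). In 6 of the 7, all but Mup20, every ND tumor value lay below every KD tumor value, beside 12.3% of all genes. The call for Mup21 was lost without KD tumor 1, KD tumor 2, ND tumor 1 or ND tumor 3 (limma adjusted p = 0.0537 to 0.0786), and at a common sum of the listed genes (0.0705). That for Mup3 was lost with no filter on low values (0.0677). All 3 calls were lost on the TPM as deposited, where 0 of 7 passed. The mean log2 sum of the 7 was higher by 1.50 in KD tumors. This comparison uses the same tumor libraries as those between tissues.

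In nontumor liver 0 of 7 genes passed between the diets (limma, with 1 of 7 at an unadjusted p under 0.05 and 0 of 7 adjusted with voom), beside 0.0447% of all tested genes that were lower and 0.00744% that were higher. The differences ran from -1.08 ± 0.98 for Mup19 to -0.08 ± 0.35 for Mup21, and Mup11 gave -0.76 ± 0.36 (limma adjusted p = 0.56). The groups overlapped for all 7, beside 2.79% of all genes with every KD nontumor value below every ND nontumor value. The sum was lower on KD by 0.56 on the log2 scale, but higher by 0.41 on the TPM as deposited, where the median of all genes moved by 0.69 and Mup3, Mup7, Mup11, Mup12, Mup20 and Mup21 also turned sign. Without ND nontumor 4 the sum was lower on KD by 0.80.

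Whether the tumor difference itself depended on the diet was tested as an interaction. Mup11 passed, with a tumor difference 2.96 ± 0.50 smaller in size on KD than on ND (limma adjusted p = 0.0225), beside 0.208% of all tested genes with a positive interaction. The other 6 had interactions of 1.34 to 2.58 and did not pass, Mup3 being nearest at 2.52 ± 0.63 (limma adjusted p = 0.0772). For Mup11 the call was lost without ND nontumor 2 (limma adjusted p = 0.0667), ND nontumor 3 (0.0504) or ND tumor 1 (0.0573), and on the TPM as deposited (0.481), while without ND nontumor 4 it held (0.0137).

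Tumor samples can hold some nontumor liver, and in bulk tissue fewer cells of a type and less RNA per cell cannot be told apart. The level of Mup11 was 0.136% to 0.231% of the nontumor mean in ND tumors and 1.10% to 2.44% in KD tumors. At the percentage of its nontumor mean that Mup11 kept in the same library, Mup20 would stand at 8.84 to 15.1 in ND tumors, where 1448 to 3592 was measured, and at 69.0 to 152 in KD tumors, where 3584 to 8011 was measured. Mup3 would stand at 19.3 to 32.9 where 545 to 1399 was measured on ND, and at 102 to 226 where 1532.5 to 5440.5 was measured on KD. Mup20 and Mup3 in tumors were 6.78 to 406 times the level at that percentage. Mup21 was 24.1 to 48.2 times that level on ND and 7.71 to 15.4 times on KD. Mup7, Mup12 and Mup19 were 0 to 4.04 times that level on ND and 0.325 to 9.48 times on KD, so the highest of them on KD, Mup19 in KD tumor 3, lay above the lowest value of Mup3. How much nontumor liver the tumor samples held was not tested.

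Other genes of nontumor liver were set beside this. Among pericentral genes, which are active around the central vein, Cyp2c54 had the lowest tumor level, 0.189% of the nontumor mean on ND and 1.75% on KD. Among male-biased genes Hsd3b5, a steroid dehydrogenase, had 0.421% on ND, and Elovl3, a fatty acid elongase, 1.44% on KD. Kupffer cell markers with a nontumor level of at least 20 kept 3.25% to 11.0% on ND and 8.94% to 70.5% on KD. On KD these were 3 genes, C6 at 8.94%, Clec4f at 19.6% and Cd5l at 70.5%. C6, with nontumor means of 174 on ND and 159 on KD, was also in the list of male-biased genes. Of all 11 Kupffer cell markers tested, 9 were lower and 1 higher in tumors on ND, beside 14.2% and 14.5% of all tested genes. On KD 7 were lower, beside 16.2% of all tested genes. Among the markers with an ND nontumor level under 20, Timd4 kept 3.85% on ND, Cd163 8.99%, Vsig4 13.8%, Clec1b 41.2% and Slc40a1 47.4%. Adgre1 stood at 110.5% on ND and Cdh5, which endothelial cells also express, at 307%. The summed Kupffer cell markers (12 of 12 listed) were 375 to 513 in ND nontumor liver, 220 to 397 in KD nontumor liver, and 66.2 to 104 over both tumor groups, and none of the 12 was at 0 in all libraries. The part of admixed tissue in the levels of the Mup genes and in their diet differences was not tested.

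**Figure D4:**
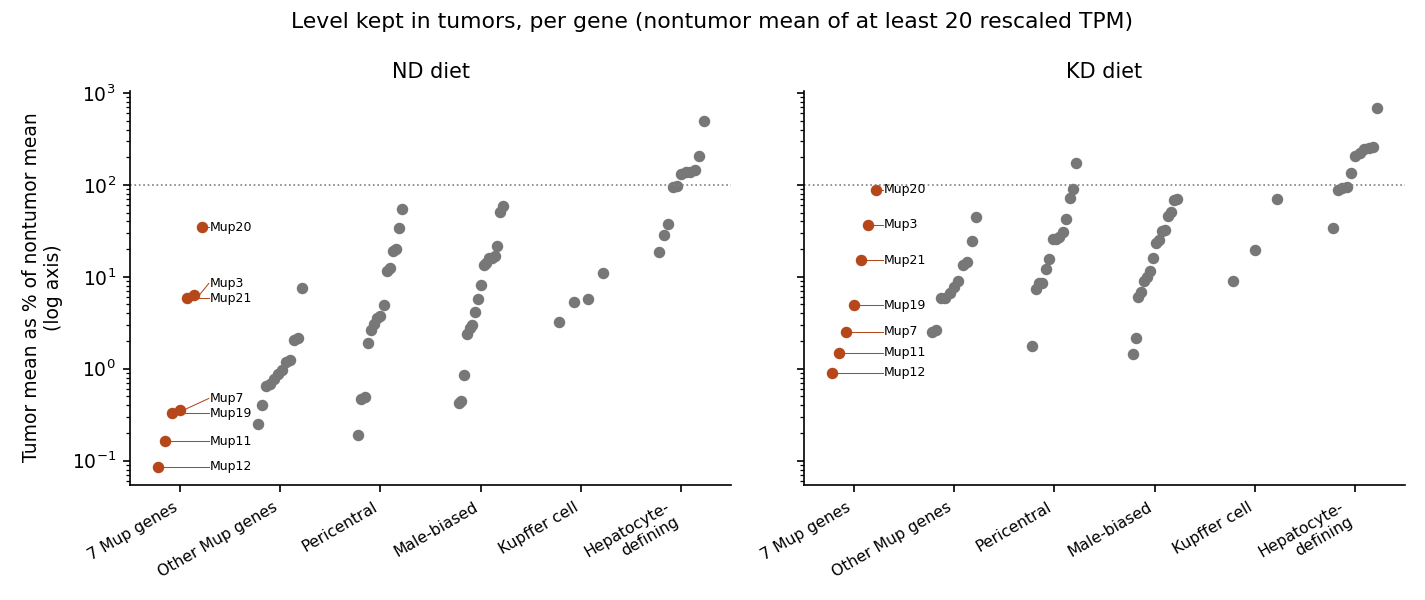
Tumor mean as a percentage of the nontumor mean (vertical log axis) for single genes of 6 groups (horizontal axis), with ND on the left and KD on the right and a dotted line at 100%. Each point is a gene with a nontumor mean of at least 20 rescaled TPM. The 7 Mup genes span 0.0857% to 34.6% on ND and 0.903% to 88.7% on KD, Mup20 being highest on both.

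Of the 14 other Mup symbols 13 were tested, and 12 were lower in tumors on ND and 11 on KD, beside 14.2% and 16.2% of all tested genes. Their median differences were -5.09 and -3.08, beside 0.00 and 0.01 over all tested genes. Mup17 was the most abundant of them, at 8613 ± 7484 in ND nontumor liver and 82.4 ± 41.0 in ND tumors. Among the 12 with an ND nontumor mean of at least 20, the highest share kept in ND tumors was 7.48%, by Mup22. It lay under the 34.6% of Mup20. Mup6 and Mup5, with ND nontumor means of only 0.62 and 0.63, kept 51.2% and 17.55%. Among the 11 with a KD nontumor mean of at least 20, the highest share was 44.6%, by Mup18, under the 88.7% of Mup20. The 7 genes held 64.5% to 92.0% of the sum over all 21 symbols in ND nontumor liver and 93.2% to 98.7% in ND tumors, and the sum over all 21 was lower in tumors by 3.53 on ND and 1.28 on KD.

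The 8 nearest listed genes of other families, 4 on each side of the cluster, moved in both directions on ND. Hsdl2 was lower in tumors by 2.00 (limma adjusted p = 0.000484) and Slc31a1, a copper transporter, by 0.59 (limma adjusted p = 0.032). Zfp37 was higher by 2.11 (limma adjusted p = 4.83e-05) and Slc31a2 by 0.55 (limma adjusted p = 0.0103). These calls stand beside 14.2% of all tested genes that were lower on ND and 14.5% that were higher. On KD Fkbp15 alone of the 8 passed, at -0.52 (limma adjusted p = 0.0333), beside 16.2% of all tested genes that were lower. Snx30, the nearest gene before the cluster, gave 0.23 on ND (limma adjusted p = 0.459).

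Genes of the growth hormone route to the Mup genes were lower in tumors in part. Of 17 receptor and signalling genes, 6 were lower and 2 higher on ND, beside 14.2% and 14.5% of all tested genes, and 8 lower and 2 higher on KD, beside 16.2% and 16.3%. The list medians were -0.11 and -0.30. Ghr, the growth hormone receptor, was lower by 2.08 ± 0.29 on ND (limma adjusted p = 5.7e-05) and by 1.34 ± 0.29 on KD (limma adjusted p = 0.00215), and was higher in KD than in ND tumors by 1.05 ± 0.29 (limma adjusted p = 0.0224). Igf1, the main secreted product of hepatic growth hormone signalling, was lower by 2.49 ± 0.35 and 1.70 ± 0.35 (limma adjusted p = 7.57e-05 and 0.00176). Socs2, a feedback inhibitor of the receptor, was lower by 1.99 ± 0.24 and 0.79 ± 0.24 (limma adjusted p = 2.04e-05 and 0.0204). Stat5b, which carries the signal to the genome, gave -0.11 ± 0.19 on ND (limma adjusted p = 0.689) and was lower by 0.69 ± 0.19 on KD (limma adjusted p = 0.00974). Cish, another feedback gene, gave -0.31 ± 0.40 on ND (limma adjusted p = 0.604) and was lower by 1.44 ± 0.40 on KD (limma adjusted p = 0.0118).

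Among 21 transcription factors of sex-biased and hepatocyte genes, 10 were lower and 2 higher on ND, and 10 lower and 1 higher on KD, beside the same percentages of all tested genes. Bcl6, a male-biased repressor that competes with STAT5, was lower by 1.05 ± 0.23 and 1.23 ± 0.23 (limma adjusted p = 0.00298 and 0.000972). Zhx2, a regulator linked to Mup expression in mouse strains, gave -0.41 ± 0.27 and -0.18 ± 0.27 (limma adjusted p = 0.286 and 0.637).

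Male-biased liver genes other than Mup moved with the family, with 16 of 18 tested lower on ND and 14 of 18 on KD, beside 14.2% and 16.2% of all tested genes, at list medians of -2.91 and -2.49. Female-biased genes moved mostly the other way, with 9 of 15 higher and 3 lower on each diet, beside 14.5% higher on ND and 16.3% on KD among all tested genes. Cyp2b9 was higher by 5.76 ± 0.73 on ND (limma adjusted p = 2.53e-05) and 2.91 ± 0.73 on KD (limma adjusted p = 0.00604). Pericentral genes were lower in 19 of 20 cases on ND and 17 of 20 on KD, beside 14.2% and 16.2% of all tested genes. Of these 20, 12 were higher in KD than in ND tumors, beside 7.21% of all tested genes. Of the hepatocyte-defining genes 2 of 11 were higher and 2 lower on ND, beside 14.5% and 14.2% of all tested genes. On KD 5 of them were higher and 1 lower, beside 16.3% and 16.2%. Their medians were 0.38 on ND and 1.23 on KD. Of 9 other lipocalins tested, 2 were higher and 1 lower on ND and 5 higher and 1 lower on KD, beside 14.5% higher on ND and 16.3% on KD. Lcn2, an acute-phase lipocalin that binds siderophores, was higher by 6.09 ± 0.87 and 5.99 ± 0.87 (limma adjusted p = 8.82e-05 and 0.000125).

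Without ND nontumor 4, all 7 genes passed on ND, with differences of -9.33 for Mup11, -8.30 for Mup7, -8.03 for Mup12, -7.26 for Mup19, -4.38 for Mup21, -4.22 for Mup3 and -1.74 for Mup20. The sum of the 7 gave -3.45 and that of the 4 central copies -8.96. The share of the nontumor mean kept in ND tumors was then 31.3% for Mup20, 5.67% for Mup3, 4.95% for Mup21, 0.276% for Mup7, 0.249% for Mup19, 0.139% for Mup11 and 0.0700% for Mup12. Mup20 over Mup3 was 0.483 in ND nontumor 4, within the 0.359 to 0.525 of the other 3 ND nontumor libraries, and its 26.2% share of Mup20 in the sum lay above their 17.8% to 25.5%. The counts of genes higher and lower in tumors among the other Mup symbols and the male-biased, pericentral, growth hormone, transcription factor and lipocalin lists were the same numbers without this library on both diets, in a fit added after the data were seen. Hepatocyte-defining genes then gave 1 higher on ND and 4 on KD, and female-biased genes 2 lower on KD.

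Profiles over the 16 libraries were compared with those of 7742 genes by the root mean square difference of centred log2 values, as a description. Nearest to the sum of the 7 were Ugt2a3 (0.29), C8b (0.33), Dpyd (0.39), Glul (0.41) and Cyp2d9 (0.42). Nearest to Mup20 were Apoh (0.23), Chp1 (0.30), Mdh1 (0.31), Apoa2 (0.32) and Itm2b (0.32), of which the plasma apolipoproteins Apoh and Apoa2 had KD tumor differences of -0.01 and 0.05. Nearest to Mup11 was Cyp2c54 (0.88), at a larger distance, with tumor differences of -8.40 on ND and -5.92 on KD. Nearest to Mup3 were Ugt3a2 and Car3 (0.49 each), and nearest to Mup21 was Acot1 (0.51).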

How the data were processed

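The deposited table holds TPM values made by the authors, with 20601 genes in 16 columns. Per the submitters' processing notes, FastQC, HISAT2, SAMtools and featureCounts were used with mm10. Versions, annotation, strand and handling of reads that fit several genes are not given in the sources used here. Nontumor columns carry P where sample titles carry N and were matched by diet letters and number. Steps between the TPM values of a gene are set by whole reads, from which reads were recovered for 20601 of 20601 genes (within 1e-05 reads) and used for depth and for 1 alternative fit. Read counts are given with no interval, and the 95% interval of a difference is limma's, from the spread between libraries.

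Values were divided by median-of-ratios factors and fitted with limma 3.58.1 (R 4.3.3, variance trend) as log2(value + 1), all 16 libraries and 4 group means in 1 fit, for 13432 genes with a TPM of at least 1 in at least 4 libraries. P-values were adjusted by Benjamini-Hochberg at 0.05. On simulated data 194 of 200 genes changed by 2 on the log2 scale between ND tumor and nontumor were called, and 9 unchanged ones. Within groups no 2 libraries were copies (chi-square per degree of freedom at least 12.3). Coding sequences (GENCODE vM21) were aligned with MAFFT 7.526. Other steps used Python 3.11.15. Alternatives were other scalings, pseudocount 0.1, no filter, only the groups compared, replicate blocks, voom, and each library left out. The members and the gene lists were chosen with earlier results of these data known. The 7 members were named whatever their values, list genes by the largest differences that passed plus fixed growth hormone genes, and similar genes by the 5 smallest distances. A further list gene that this rule would name is not reported here.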

Additional observations from a re-analysis of the deposited data

Results flagged for a closer look

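In 4 of 32 tests of a group of 4 libraries (7 genes and their sum in 4 groups), the highest library stood apart from the other 3 beyond Dixon's 95% critical value, which chance gives in about 1 of 20 groups. Mup11 was 75.8 in KD tumor 1 and 34.3 to 38.9 in the other KD tumors. Mup11 was 12.6 in ND tumor 4 and 7.405 to 7.78 in the other ND tumors. Mup19 was 18.6 in KD tumor 3 and 4.57 to 5.37 in the other KD tumors. Mup19 was 1982 in ND nontumor 2 and 33.1 to 305 in the other ND nontumor libraries. Mup11 and Mup19 are near-copies, and the split of reads between them was not tested. The diets differed in the tumor difference of Mup11, by 2.96 on the log2 scale (limma interaction, adjusted p = 0.0225).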

How the results depend on the processing

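Leaving out each library in turn gave 6 to 7 members called for tumor against nontumor on ND, 5 to 6 on KD, 2 to 4 for diet in tumors, 0 to 0 in nontumor liver and 0 to 2 for the interaction. The log2 difference of the sum ran from -3.45 to -3.00 on ND, -1.45 to -0.91 on KD, 1.29 to 1.74 between tumors and -0.80 to -0.26 in nontumor liver. On the TPM as deposited, 0 members passed for diet in tumors and 0 for the interaction, and the sum gave -2.53 for the ND tumor difference and 0.41 between diets in nontumor liver. With only the 2 groups compared, 6 members passed for diet in tumors. Scaling listed genes to a common sum, voom, and leaving out KD tumor 1 each gave 2 members for the interaction. The sign turned for Mup20 in KD tumor against nontumor (-0.32 as deposited, -0.31 at a common sum, -0.45 to -0.05 without KD nontumor 3, KD nontumor 4 or KD tumor 4). It also turned between diets in nontumor liver on the TPM as deposited (Mup3 0.36, Mup7 0.09, Mup11 0.21, Mup12 0.54, Mup20 0.70, Mup21 0.88), for Mup21 at a common sum (0.04), and without single libraries for Mup20 (from -0.61 to 0.19 over the libraries left out, KD nontumor 3 turning it) and Mup21 (from -0.41 to 0.11, KD nontumor 3, ND nontumor 2 or ND nontumor 3 turning it). The cause was not tested. Same-numbered tumor and nontumor samples correlated at -0.112 to 0.164 in their deviations from the group means, so the numbers were not used to pair samples. With a replicate block the members called were 7, 6, 3, 0 and 1 in the order above. With a replicate block within diet they were 7, 5 and 0 for ND, KD and the interaction, with Mup3 on KD at a limma adjusted p of 0.0531 and the Mup11 interaction at 0.0527. For single members, 237 values under changed settings kept direction and side of the threshold, 13 lost the call and 7 gained it. Without 1 library 538 kept both, 11 lost the call and 4 gained it. Depth limits Mup12 in ND tumors, with 4 reads in 4 libraries.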

Other observations

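The table also lists 7 Mup pseudogene symbols, of which 2 passed the filter. Mup-ps16 stood at 86.5 ± 32.2 in ND nontumor liver and 2.12 ± 2.09 in ND tumors, and at 77.1 ± 32.5 and 3.58 ± 2.39 on KD (mean ± SD, n = 4 each), with log2 differences of -4.98 ± 0.47 and -4.14 ± 0.47 (limma adjusted p = 1.58e-06 and 1.28e-05). Mup-ps19 stood at 42.8 ± 11.4 in ND nontumor liver and 18.3 ± 8.26 in ND tumors, and at 47.1 ± 34.9 and 43.1 ± 25.5 on KD, with differences of -1.25 ± 0.51 (limma adjusted p = 0.0795) and 0.01 ± 0.51 (limma adjusted p = 0.992). Whether reads of Mup genes were counted to these pseudogenes was not tested.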
